A study of Arabidopsis thaliana with 64 samples.

Results

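Phosphate (Pi) deficiency was compared in roots of wild-type (WT) Arabidopsis thaliana, accession Col-0, grown under blue (B) light. The comparison used the 4 arrays whose labels give wild type, root and blue light, 2 for Pi-deficient and 2 for Pi-sufficient plants, out of 64 arrays in the series. Plants carried no transgene or mutation, and per the labels they were seedlings of 3 weeks on agar at 23 °C with 16 h of light and 8 h of darkness. The study's methods give continuous light for the B light and red (R) light experiment, so the hours of light per day are not settled. The 4 WT root arrays under R light, 2 at each Pi level, were fitted together with them. The replicates are 2 biological replicates per group in the methods, 1 RNA sample each, and p values measure the spread between such pairs.

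Pi is the form in which roots take up phosphorus, and it is scarce in most soils. A root short of Pi releases the transcription factor PHR1 from its SPX repressors, and PHR1 then raises the Pi starvation-induced (PSI) genes, which encode Pi transporters, secreted phosphatases, enzymes that replace phospholipids by galactolipids and sulfolipids, and the non-coding RNAs IPS1 and AT4, which sequester miR399, the microRNA that targets PHO2. Pi shortage also changes iron handling in the root and can stop elongation of the primary root (PR), a response in which apoplastic iron, malate efflux through ALMT1, the ferroxidase LPR1 and cell wall peroxidases (PRX) take part. The study asked how the colour of the light changes the response of roots to Pi deficiency.

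Levels are log2 of the processed signal minus the 75th percentile of the same array, so 0 is that percentile, and 1 unit is a doubling of signal. A difference is Pi-deficient minus Pi-sufficient. A gene was called when limma gave an adjusted p under 0.05 and a fold over 2. On the 4 B light root arrays 57.0 to 64.8% of spots were well above background, and the 75th percentile of the signal ran from 97.1 to 189.3. Replicate arrays of the 4 root groups correlated at 0.972 to 0.989 over genes. The root label was checked on marker genes. CASP1 (AT2G36100), which builds the Casparian strip of the endodermis, had mean levels of 3.01 and 3.56 in the Pi-deficient and Pi-sufficient B light roots against -4.21 and -3.82 in B light shoots. The leaf gene CA1 (AT3G01500) ran the other way, at -1.21 and -2.77 in roots against 7.52 and 8.72 in shoots. LHCB2.1 (AT2G05100) was well above background on 0 of the 4 B light root arrays. The shoot markers LHCB1.3, RBCS1A, RCA and GAPA were detected on all 4, though lower than in shoots. RBCS1A, for example, was at 3.07 and 3.05 in roots against 9.13 and 10.20 in shoots. The root marker SCR did not separate the organs, at 0.29 and 0.39 in roots against 0.19 and 0.60 in shoots. None of the 5 shoot markers and 6 root markers tested was called in B light roots.

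Pi deficiency changed 1132 of 18598 genes in B light roots (6.09%), 580 higher (3.12%) and 552 lower (2.97%). The 2 Pi levels did not overlap on the arrays for any of the 1132 genes, as for 9486 of all genes tested. The genes PEPC1, SPX3 and IPS1, known from Pi starvation, were among the 10 largest increases, and the iron importer gene IRT1 was among the 10 largest decreases. On either Pi-sufficient array 176 of the 580 higher genes were not well above background, and 125 of the 552 lower genes were not on either Pi-deficient array. For such a gene each array of the dim group was given the lowest signal detected on it, or the gene's own signal where that was higher. The ratio is written as at least that fold. This floor is taken over all probes of an array, so it is no detection limit of the single gene. Where a fitted difference rests in part on undetected signals, the difference with each of them raised to its array's floor is given beside it, a value with no test that was chosen after seeing the data. Each slide held 1 array of every group, and with the slide as a block 1387 genes were called, among them all 1132. The count was 291 (188 higher and 103 lower, a share higher of 64.6% against 51.2%) after normexp background correction, 322 in the table of values that the authors processed, and 453 without the filter on dim probes.

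Of the genes of Pi signalling SPX1, SPX2, SPX3, IPS1 and AT4 rose. Of 20 genes on the list 18 were tested, 7 rose (38.9%, against 3.12% of all genes tested) and 1 fell, and the median difference was 0.61 beside -0.08 over all genes. IPS1 (AT3G09922), the RNA decoy of miR399, was at 0.85 and 2.19 on the 2 Pi-deficient arrays and at -5.32 and -5.36, not well above background, on the 2 Pi-sufficient arrays. It was at least 35.8-fold higher under Pi deficiency (limma, adjusted p = 0.000298). AT4 (AT5G03545), its relative, was bright in both groups, at 7.51 and 8.09 against 5.49 and 5.70, a difference of 2.21 ± 0.26 (SE, limma, adjusted p = 0.00265).

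The SPX genes encode Pi-dependent repressors of PHR1. SPX3 (AT2G45130) was at 1.18 and 3.20 with Pi deficiency and at -4.92 and -4.80, below detection, with sufficient Pi. It was at least 56.8-fold higher (limma, adjusted p = 0.000958). SPX1 (AT5G20150) stood at 3.22 and 3.88 against 0.10 and -0.07, a rise of 3.53 ± 0.23 (limma, adjusted p = 0.000397), and SPX2 (AT2G26660) at 2.60 and 2.47 against 0.71 and 0.55, a rise of 1.90 (limma, adjusted p = 0.0013). PHO1;H1 (AT1G68740), a relative of the xylem-loading Pi exporter, rose by 1.69 and the transcription factor gene WRKY75 (AT5G13080) by 1.21. The WRKY75 call was lost when Pi-deficient replicate 2, Pi-sufficient replicate 1 or R light Pi-deficient replicate 1 was left out. The gene that fell was NLA (AT1G02860), whose product marks PHT1 transporters for degradation. Its levels were -0.42 and -0.06 under Pi deficiency and 1.29 and 0.99 with sufficient Pi, and fell by 1.38 on the log2 scale (limma, adjusted p = 0.00905).

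PHR1 and PHO1, at the centre of the pathway, did not pass the test, nor did PHO2 on its brightest probe. PHR1 (AT4G28610) was at 1.04 and 0.85 against 0.54 and 0.40, a difference of 0.47 ± 0.17 (limma, adjusted p = 0.146). PHO1 (AT3G23430), the exporter that loads Pi into the xylem, differed by 0.40 ± 0.17 (limma, adjusted p = 0.2). PHO2 (AT2G33770), the E2 enzyme that removes PHO1, differed by 0.36 ± 0.25 on its brightest probe, and its other probe differed by 1.77. Over the alternative settings the PHO2 difference ran up to 1.07, past the fold limit, so its result depends on the probe used.

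**Figure D1:**
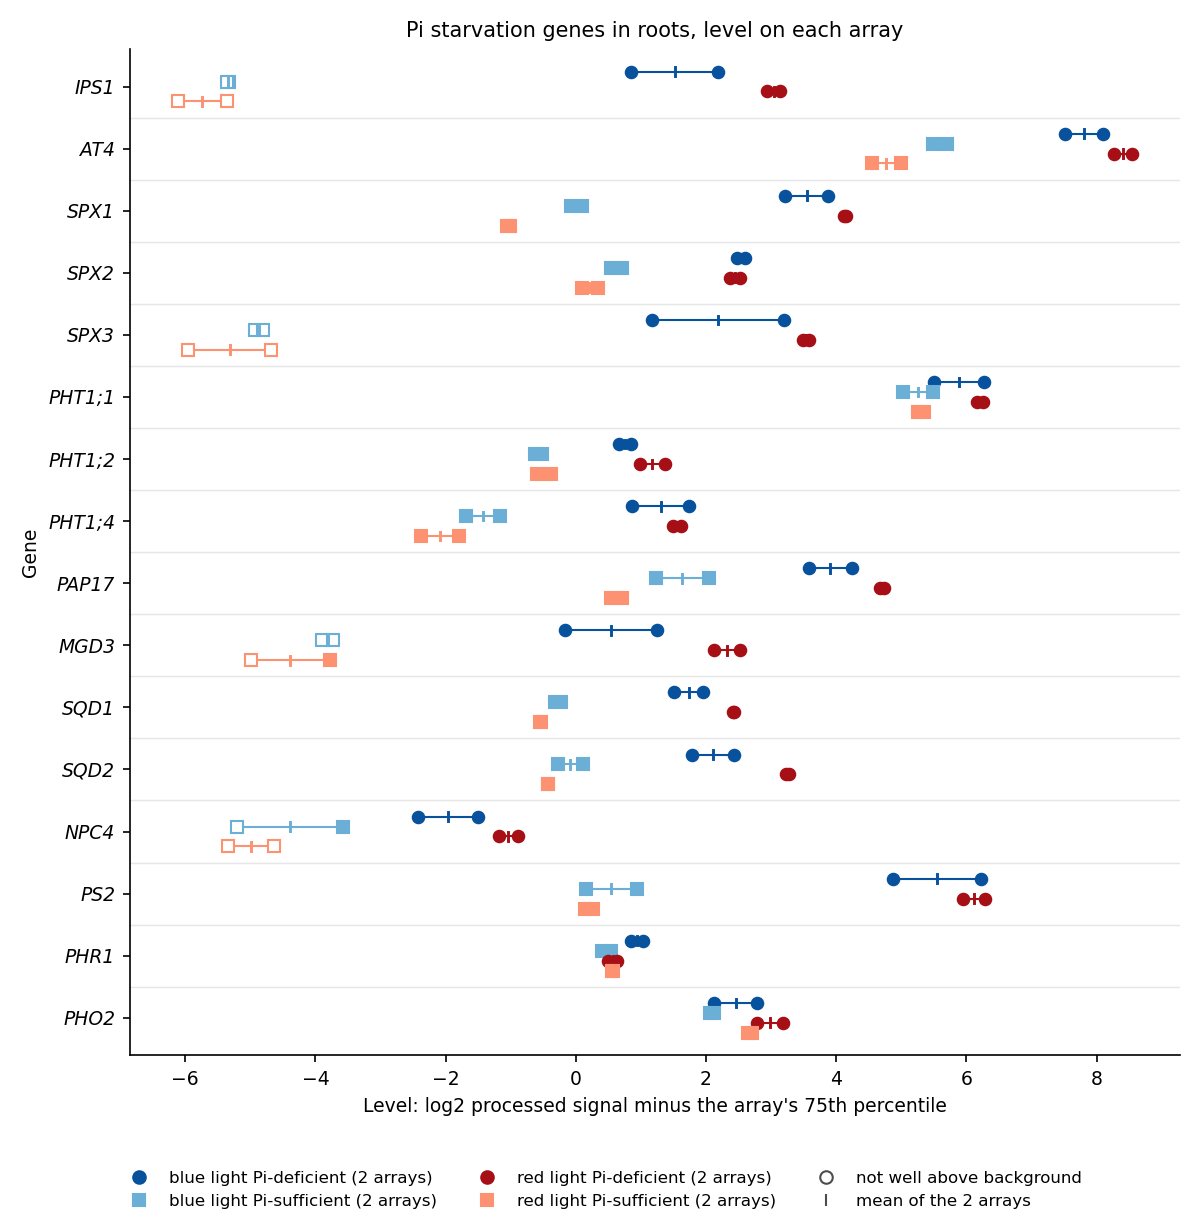
Level of 16 Pi signalling, transport, phosphatase and lipid genes on each of the 8 WT root arrays (x axis, log2 processed signal minus the array's 75th percentile), with a row per gene, circles for Pi-deficient and squares for Pi-sufficient roots under B (blue) and R (red) light, open symbols for signals not well above background and a tick at the mean of 2 arrays. IPS1, SPX3 and MGD3 lie below detection in Pi-sufficient B light roots and between -0.16 and 3.20 in Pi-deficient ones. PHT1;1, PHR1 and the brightest probe of PHO2 differ little.

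Transporters formed the second group. Of 15 genes 11 were tested, 6 rose (54.5%, against 3.12% of all genes) and 0 fell, with a median difference of 1.34. With the undetected genes set at their bound the median was 0.43. PHT1;4 (AT2G38940), a high-affinity Pi importer of the root, was at 0.87 and 1.73 with Pi deficiency and at -1.69 and -1.16 with sufficient Pi, a rise of 2.73 ± 0.33 (limma, adjusted p = 0.00318). PHT1;2 (AT5G43370) rose by 1.34 ± 0.20, from -0.63 and -0.52 to 0.67 and 0.85. PHT1;1 (AT5G43350), another importer of the root surface, was at 5.5 and 6.27 against 5.03 and 5.49, and its difference of 0.63 ± 0.28 did not pass (limma, adjusted p = 0.211). PHT1 coding sequences are alike, and whether the probes tell them apart was not tested.

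The glycerol-3-phosphate permease gene G3Pp1 (AT3G47420) rose by 2.68 ± 0.19, with 0.59 and 0.28 against -2.19 and -2.30 (limma, adjusted p = 0.000487). The other transporter calls rest on dim signals. PHT1;5 (AT2G32830), PHT1;9 (AT1G76430) and the mitochondrial carrier gene PHT3;2 (AT3G48850) were well above background on 1 of the 2 Pi-deficient arrays and on neither Pi-sufficient array, and were at least 3.3-, 1.35- and 1.12-fold higher. PHT1;5 lost its call in 7 of the 8 fits that left out 1 array, PHT3;2 in 6 and PHT1;9 in 3. The count of 6 became 3 to 5 with 1 array left out, and was 3 without Pi-sufficient replicate 2.

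Enzymes that free Pi from organic phosphate were a smaller group. Of 32 acid phosphatase and ribonuclease genes 21 were tested, 4 rose (19.0%, against 3.12% of all genes) and 0 fell, and the median was 0.32. PAP17 (AT3G17790), an acid phosphatase used as a marker of Pi deficiency, was at 3.58 and 4.24 against 1.23 and 2.04, a rise of 2.27 ± 0.31 (limma, adjusted p = 0.0049). The secreted phosphatase gene PAP12 (AT2G27190) rose by 1.13 ± 0.17 and AT1G13750, of the same family, by 1.39 ± 0.25. The AT1G13750 call was lost without Pi-sufficient replicate 1 (adjusted p = 0.0605). PAP23 (AT4G13700) was seen on 1 Pi-deficient array only and was at least 1.54-fold higher. RNS1 (AT2G02990), a ribonuclease that salvages Pi from RNA, was at -0.33 and 0.87 against -1.95 and -0.62. It differed by 1.56 ± 0.52 and did not pass (limma, adjusted p = 0.113), but did with the slide as a block (adjusted p = 0.00552).

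In the main fit membrane lipid remodelling was the list with the largest share of increases among those of Pi starvation. That rank did not hold after normexp, with 5 of 16 lipid and 3 of 8 metabolic genes higher. Nor did it in the authors' table, with 3 of 16 lipid and 4 of 11 transporter genes. Of 18 genes 16 were tested, 9 rose (56.2%, against 3.12% of all genes) and 0 fell. The median difference was 1.76, or 1.23 with undetected genes at their bound. MGD3 (AT2G11810), a synthase of galactolipid that replaces phospholipid, was at -0.16 and 1.24 under Pi deficiency and at -3.89 and -3.72, below detection, with sufficient Pi. It was at least 17.8-fold higher (limma, adjusted p = 0.00251). Its relative MGD2 (AT5G20410) rose by 2.19 ± 0.38. Without Pi-sufficient replicate 1 the MGD2 call was lost.

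Both steps of sulfolipid synthesis rose. SQD1 (AT4G33030) was at 1.51 and 1.96 against -0.32 and -0.22, a rise of 2.01 ± 0.20 (limma, adjusted p = 0.00137). SQD2 (AT5G01220) was at 1.79 and 2.43 against 0.11 and -0.28, a rise of 2.2 ± 0.25 (limma, adjusted p = 0.00217). UGP3 (AT3G56040), which supplies UDP-glucose to the same route, rose by 1.51 ± 0.29 and lost its call in 4 of the 8 fits without 1 array. Genes that break down phospholipid head groups and backbones rose as well. The phospholipase D gene PLDP2 (AT3G05630) was at 0.84 and 1.39 against -3.13 and -3.00, a rise of 4.18 ± 0.21 (limma, adjusted p = 0.000139). The glycerophosphodiester phosphodiesterase gene GDPD1 (AT3G02040) was at 5.94 and 6.79 against 3.48 and 3.64, a rise of 2.81 ± 0.28. GDPD3 (AT5G43300) was at least 1.84-fold higher, seen on 1 Pi-deficient array, and lost its call in 4 of the 8 fits without 1 array. NPC4 (AT3G03530), a phospholipase C, was dim, with 1 Pi-sufficient array below detection. It rose by 2.42 ± 0.53 (limma, adjusted p = 0.0317), or 1.58 at the floor, a call lost in 7 of the 8 fits without 1 array. The list's count of 9 became 6 without Pi-sufficient replicate 1 or R light Pi-deficient replicate 1.

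Among enzymes that spare Pi in metabolism 3 of 8 rose (37.5%, against 3.12% of all genes) and 0 fell, with a median of 0.90. PEPC1 (AT1G17710), a phosphatase of phosphoethanolamine and phosphocholine, had the largest fitted difference of all genes. It was at 2.70 and 4.29 with Pi deficiency and at -4.56 and -3.41, below detection, with sufficient Pi, at least 124-fold higher (limma, adjusted p = 0.000682). PS2 (AT1G73010), a phosphatase named for Pi starvation, was at 4.87 and 6.23 against 0.15 and 0.94, a rise of 5.0 ± 0.43 (limma, adjusted p = 0.000912). PPCK1 (AT1G08650), the kinase of phosphoenolpyruvate carboxylase, rose by 1.88 ± 0.18.

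The study listed 91 PSI genes, which it called well known and reported from arrays of this series, so they are no independent evidence of a direction. They gave 13 higher and 4 lower of 61 tested (21.3% and 6.56%, against 3.12% and 2.97% of all genes). Those that fell were PAL4, 4CL3, CHI and F3'H, which encode enzymes of phenylpropanoid and flavonoid synthesis, a route that makes anthocyanin in Pi-starved shoots. Between 1 and 6 of the list fell with 1 array left out, 1 without Pi-deficient replicate 1 or Pi-sufficient replicate 2 and 2 without R light Pi-deficient replicate 1 or either R light Pi-sufficient replicate. On the list of 18 flavonoid and anthocyanin genes 8 were tested, 2 fell, 0 rose, and the median difference was -0.81. CHI (AT3G55120), chalcone isomerase, was at -0.20 and -0.02 against 1.11 and 1.13, and fell by 1.23 on the log2 scale (limma, adjusted p = 0.0112). F3'H (AT5G07990), flavonoid 3'-hydroxylase, fell by 1.26 with an adjusted p of 0.0496 in limma. CHI lost its call without Pi-deficient replicate 1 or Pi-sufficient replicate 2, and F3'H in 7 of the 8 fits without 1 array. 4CL3 (AT1G65060), a coumarate ligase of the flavonoid branch, was at -1.12 and -1.17 against 0.19 and 0.37 and fell by 1.43 (limma, adjusted p = 0.0045). CHS (AT5G13930), chalcone synthase, was at 1.57 and 1.54 against 2.23 and 2.15, a difference of -0.63 ± 0.17 that did not pass (limma, adjusted p = 0.0677).

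Most counts of these lists were lower under other treatments of the signal. After normexp correction 6 signalling, 2 transporter, 3 phosphatase, 5 lipid and 3 metabolic genes were called higher, and the authors' values gave 3, 4, 1, 3 and 2 in that order. Of the study's list 7 were called higher and 0 lower after normexp, and 4 and 1 in the authors' table. The 2 flavonoid decreases were called in neither.

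**Figure D2:**
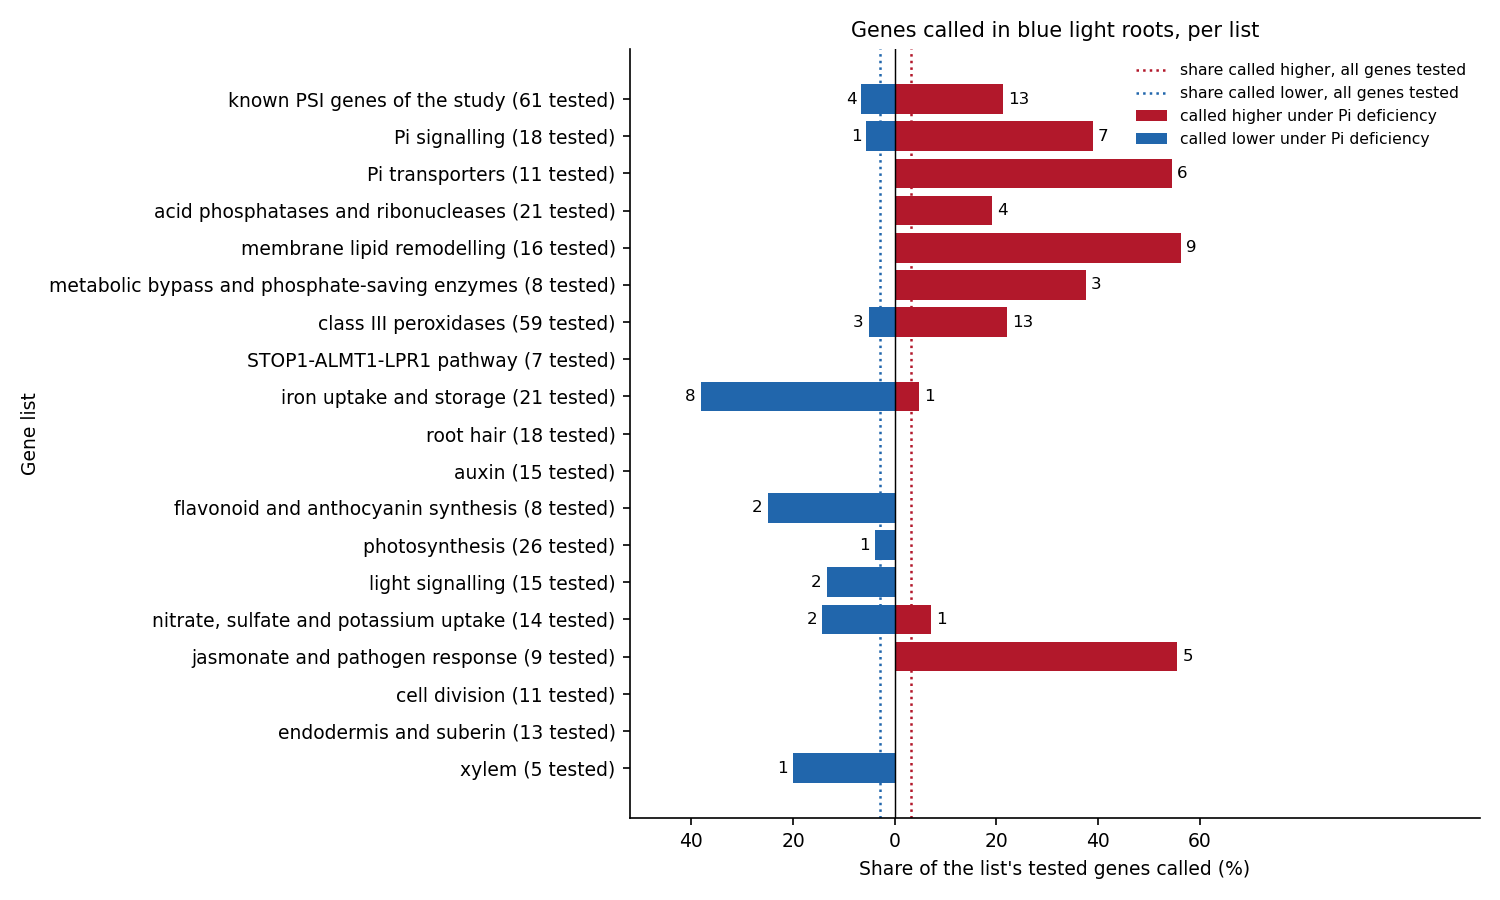
Share of the tested genes of each of the 19 lists that were called in B light roots (x axis, percent), higher under Pi deficiency to the right in red and lower to the left in blue, with the number of genes beside each bar and dotted lines at the shares over all 18598 genes tested. Transporters, lipid remodelling and jasmonate and pathogen genes reach 54.5% or more on the higher side, while the iron list has 8 genes on the lower side.

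Genes that import iron, and regulators of that import, were among those that fell. Of 25 iron genes 21 were tested, 8 fell (38.1%, against 2.97% of all genes), 1 rose, and the median difference was -0.41. IRT1 (AT4G19690), the iron importer of the root epidermis, was at 0.51 and 0.73 on the Pi-sufficient arrays and at -4.96 and -4.71, below detection, on the Pi-deficient ones. It was at least 19.2-fold lower under Pi deficiency (limma, adjusted p = 0.0124), and the call was lost without Pi-deficient replicate 1 or Pi-sufficient replicate 2 (highest adjusted p = 0.0688). FRO2 (AT1G01580), the ferric chelate reductase that works with IRT1, was at -0.94 and -0.57 with sufficient Pi and undetected with Pi deficiency, at least 7.39-fold lower (limma, adjusted p = 0.0049).

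Regulators of these genes and other members of the list fell as well. FRU (AT2G28160), the transcription factor also called FIT that switches on IRT1 and FRO2, was at 0.27 and 0.56 against 1.53 and 1.65, and fell by 1.18 on the log2 scale (limma, adjusted p = 0.00945). The FRU call was lost without Pi-sufficient replicate 2, and its other probe differed by -0.30. BHLH101 (AT5G04150), a partner of FRU, MYB10 (AT3G12820), needed for growth on little iron, and NAS4 (AT1G56430), which makes the iron chelator nicotianamine, were all below detection on both Pi-deficient arrays. They were at least 2.59-, 2.09- and 1.93-fold lower, with adjusted p of 0.00293, 0.00814 and 0.00186 in limma. AT1G47395 and AT1G47400, on the list for small peptides of the iron deficiency response, were at least 6.20- and 2.13-fold lower.

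The gene that rose on the iron list was FER1 (AT5G01600), the ferritin that stores iron. It was at 3.95 and 3.67 with Pi deficiency and at 1.99 and 1.39 with sufficient Pi, a rise of 2.12 ± 0.31 (limma, adjusted p = 0.00676), and its other probes differed by 1.4 to 1.5. The 2 Pi levels do not overlap on the arrays for any of these 9 genes. The same held for all 1132 called genes and for 9486 of the 18598 tested, so it does not set these genes apart. Between 6 and 9 iron genes fell when 1 array was left out, 7 in the authors' table and 2 after normexp correction.

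**Figure D3:**
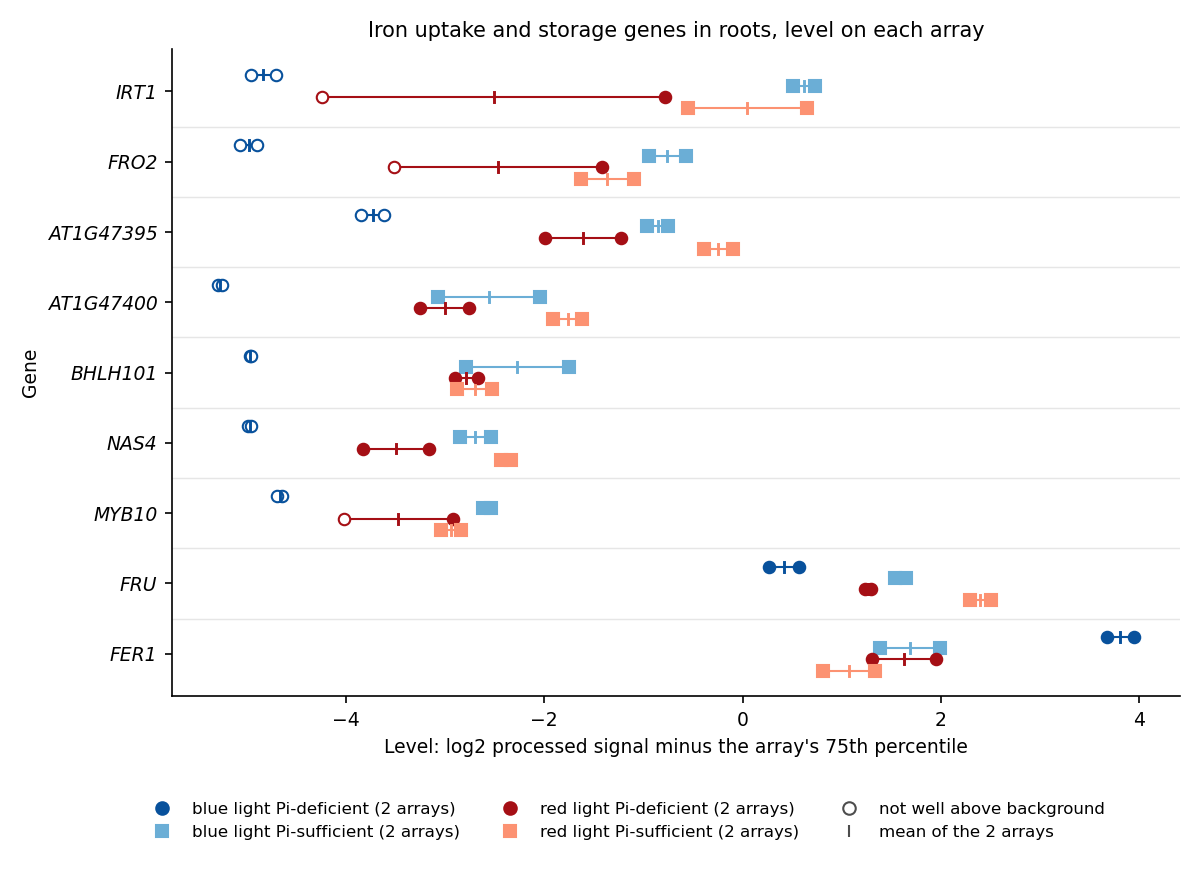
Level of 9 iron uptake and storage genes on each of the 8 WT root arrays (x axis, log2 processed signal minus the array's 75th percentile), with symbols as in the plot of Pi starvation genes. IRT1, FRO2 and the regulators BHLH101 and MYB10 are open, below detection, in Pi-deficient B light roots and detected on both Pi-sufficient arrays, whereas FER1 lies higher under Pi deficiency.

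Class III PRX enzymes stiffen or loosen the cell wall. Of 73 genes 59 were tested, 13 rose (22.0%, against 3.12% of all genes) and 3 fell, while the median difference of the family was 0.10. PRX52 (AT5G05340) had the largest fitted rise, 5.21 ± 1.27 (limma, adjusted p = 0.046), with 1.08 and 1.74 against -5.74 and -1.85, and the rise was 4.09 at the floor. Its Pi-sufficient replicates lie far apart, 1 of them was well above background, and the call was lost in 5 of the 8 fits without 1 array. Prx37 (AT4G08770) was at 2.59 and 2.89 with Pi deficiency and at 0.87 and -0.02 with sufficient Pi, a rise of 2.32 ± 0.29 (limma, adjusted p = 0.00338). AT5G06730 was at 0.93 and 1.85 against -1.41 and -0.69, a rise of 2.44 ± 0.35 (limma, adjusted p = 0.00652).

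AT4G36430 stood at 2.56 and 2.22 against 0.56 and 0.15, a rise of 2.04 ± 0.32, and PA2 (AT5G06720) at -0.23 and 0.48 against -1.61 and -1.06, a rise of 1.46 ± 0.28. The AT4G36430 call was lost without Pi-deficient replicate 1 and the PA2 call without Pi-deficient replicate 2 or Pi-sufficient replicate 1. PRXCB (AT3G49120), bright at both Pi levels, rose by 1.17 ± 0.19 from 2.05 and 2.11 to 3.1 and 3.39. PER4 (AT1G14540) and AT1G14550 were below detection with sufficient Pi and were at least 2.34- and 3.26-fold higher, calls that were lost in 6 and 4 of the 8 fits without 1 array. AT2G39040 fell by 2.41, from -0.25 and -0.12 to -2.27 and -2.92 (limma, adjusted p = 0.0013), and AT5G15180 fell by 1.71, from 3.16 and 3.58 to 1.24 and 2.08, a call lost without Pi-sufficient replicate 2. The count that rose was 7 without Pi-deficient replicate 1 or Pi-sufficient replicate 1, 8 without the other replicate of either group, and 10 to 13 without an R light array. The count that fell was 1 without Pi-sufficient replicate 2. After normexp 6 rose and 2 fell, and with the authors' values 4 rose and 1 fell.

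**Figure D4:**
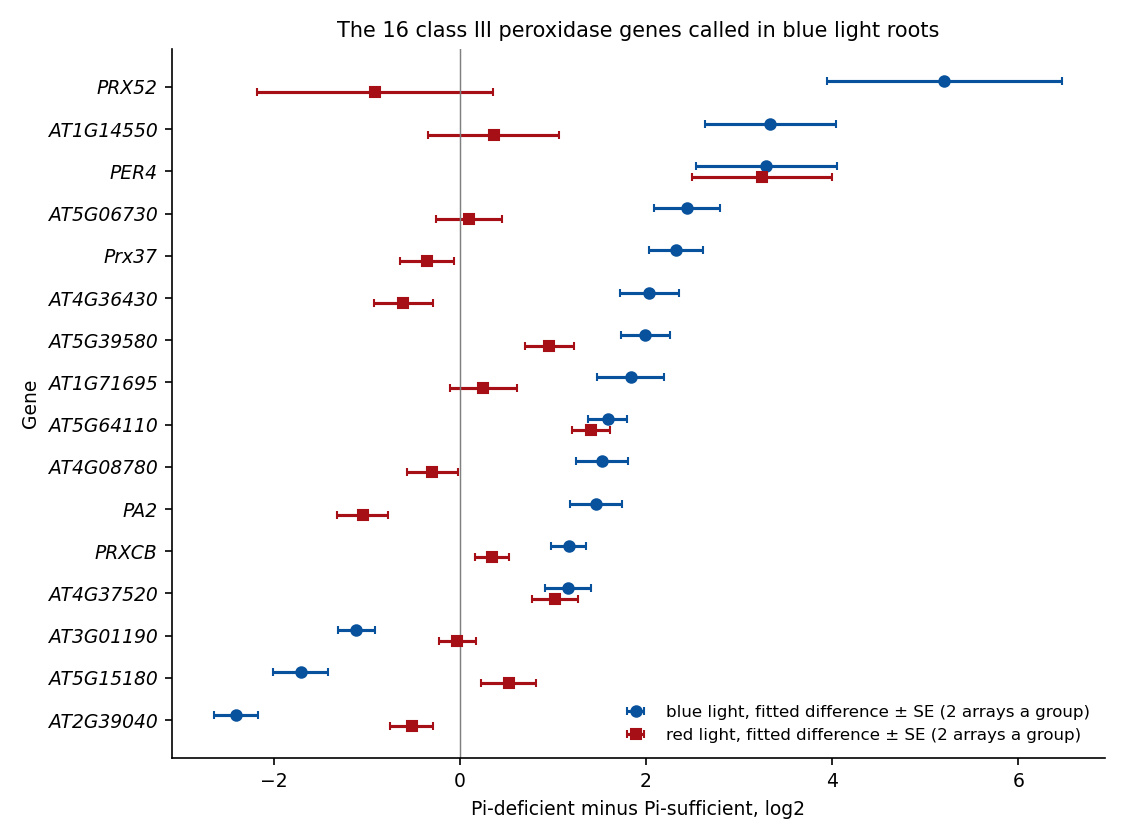
Fitted difference between Pi-deficient and Pi-sufficient roots (x axis, log2) with its SE for the 16 class III PRX genes called in B light roots, as circles for B light and squares for R light, 2 arrays in each group. The B light differences run from -2.41 to 5.21, and in R light PRX52, Prx37, AT4G36430 and PA2 lie on the other side of 0. So does AT5G15180, which fell in B light and lies at 0.53 in R light. None of these R light differences was called.

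The pathway of STOP1, ALMT1 and LPR1, which acts in the root tip, held no called gene. All 7 genes of that list were tested, 0 rose and 0 fell by limma, 1 had an unadjusted p under 0.05, with a fold below the limit, and the median difference was 0.10. STOP1 (AT1G34370), the transcription factor, was at 2.56 and 2.73 against 2.35 and 2.44. ALMT1 (AT1G08430), the malate channel, was at 3.31 and 3.28 against 3.28 and 3.11, and LPR1 (AT1G23010) at -1.08 and -0.91 against -0.60 and -0.46. Their differences were 0.25, 0.10 and -0.47, with adjusted p of 0.456, 0.791 and 0.256 in limma.

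Other lists with calls were small. Of 9 jasmonate and pathogen response genes tested 5 rose (55.6%, against 3.12% of all genes) and 0 fell, with a median of 1.11. JAZ10 (AT5G13220), a repressor in jasmonate signalling, was at -0.85 and -0.33 against -3.88 and -3.14, a rise of 2.92 ± 0.34 (limma, adjusted p = 0.00277), or 2.73 at the floor. The receptor kinase gene FRK1 (AT2G19190), a marker of pattern-triggered immunity, was at least 3.55-fold higher. WRKY40 (AT1G80840) rose by 1.90, JAZ1 (AT1G19180) by 1.43 and WRKY33 (AT2G38470) by 1.06. The JAZ1 call was lost without Pi-deficient replicate 2 or Pi-sufficient replicate 1, and the WRKY33 call without Pi-deficient replicate 1 or either Pi-sufficient replicate. The list's count was 3 without Pi-sufficient replicate 1 and 1 both after normexp and in the authors' table.

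Of 14 genes for uptake of other ions 1 was higher and 2 were lower (7.14% and 14.3%, against 3.12% and 2.97% of all genes). After normexp 0 were called in either direction, and the authors' table gave 1 higher and 1 lower. The sulfate transporter gene SULTR1;3 (AT1G22150) was at -2.46 and -1.71 against -4.99 and -5.98 and was at least 2.93-fold higher, while SULTR1;1 (AT4G08620) was at least 1.28-fold lower, a call lost in 5 of the 8 fits without 1 array. NRT1.1 (AT1G12110), the nitrate transporter and sensor, was at 1.94 and 2.55 against 3.61 and 4.25 and fell by 1.68 (limma, adjusted p = 0.0159). It lost the call without Pi-deficient replicate 1 or Pi-sufficient replicate 2.

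On the light signalling list 2 of 15 fell (13.3%, against 2.97% of all genes) and 0 rose. The B light receptor gene PHOT1 (AT3G45780) was at -1.94 and -1.95 against -0.87 and -0.98, and fell by 1.03, and ELIP2 (AT4G14690), an early light-induced protein, fell by 1.01 with a call that each of the 8 left-out arrays removed. PHOT1 lost its call without either Pi-sufficient replicate, and 0 of the list were called after normexp or in the authors' table. HY5 (AT5G11260), the transcription factor downstream of the B light receptors, was at 0.92 and 1.07 against 1.3 and 1.25, a difference of -0.28 ± 0.19 (limma, adjusted p = 0.412). Of 26 photosynthesis genes GLK2 (AT5G44190), a regulator of chloroplast development, fell by 1.27, with a call lost in 4 of the 8 fits without 1 array. GLK2 was the 1 call of the photosynthesis list, 3.85% of it, which is near the 2.97% of all genes that fell. The summed level of the list lay between 5.35 and 6.2 on the 4 arrays. In bulk roots fewer cells of a type and less RNA per cell cannot be told apart.

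Genes of cell division, root hairs, auxin, and endodermis and suberin gave no calls among 11, 18, 15 and 13 tested. Their medians were -0.10, 0.28, 0.03 and -0.45. At an unadjusted p under 0.05 with a fold over 2 the limma fit gave 1, 0, 2 and 1 genes, against 1540 of all 18598. At that p with no fold limit it gave 1, 3, 9 and 6 genes, against 4485 of all 18598. The xylem list had 1 decrease among 5, the secondary wall cellulose synthase gene CESA4 (AT5G44030), at -1.42 and -1.53 against -0.57 and -0.25. Its call was lost in 5 of the 8 fits without 1 array.

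Outside the lists the largest increases included HOL2 (AT2G43920), of a methyltransferase family, at 2.52 and 3.37 against -3.68 and -5.35 and at least 96.0-fold higher. LCR67 (AT1G75830), which encodes a plant defensin, was at 0.09 and 1.17 against -5.62 and -5.87 and at least 19.2-fold higher (limma, adjusted p = 0.000417). GSTU12 (AT1G69920), a glutathione S-transferase, was at 2.41 and 2.2 against -3.91 and -2.0, a rise of 5.26 ± 0.68, or 5.06 at the floor. AT3G47480, AT5G53048 and AT3G25240 were below detection with sufficient Pi and at least 61.6-, 26.2- and 9.16-fold higher.

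The largest decreases were led by UMAMIT17 (AT4G08300), of a family of amino acid transporters. It was at 2.21 and 1.35 with sufficient Pi and at -4.40 and -6.10, below detection, with Pi deficiency, at least 43.0-fold lower (limma, adjusted p = 0.00052). AT1G52820 went from 1.63 and 2.0 to -5.26 and -3.58, seen on 1 Pi-deficient array. It fell by 6.24 as fitted and fell by 5.18 at the floor. Cytochrome P450 genes made up 4 of the 10 largest decreases. CYP712A1 (AT2G42250) went from 2.15 and 2.83 to -3.31 and -2.36, and fell by 5.32 (limma, adjusted p = 0.000358), a value of -5.23 at the floor, and CYP93D1 (AT5G06900), CYP712A2 (AT5G06905) and CYP76G1 (AT3G52970) were at least 10.6-, 5.84- and 5.5-fold lower. AT1G52790 and AT1G15540 were at least 6.29- and 5.31-fold lower, and AT2G38600 fell by 4.26, a value of -3.77 at the floor.

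The design sets B light against R light. Pi deficiency changed 527 of the same 18598 genes in R light roots (2.83%), 407 higher (2.19%) and 120 lower (0.645%). Of the 580 genes higher in B light roots 213 were also called higher in R light (36.7%, or 52.3% of the R light list), and of the 552 lower genes 52 were also called lower (9.42%, or 43.3%). The median difference in R light was 0.89 over the 580 genes and -0.23 over the 552. Leaving out R light arrays moved the R light count to between 208 and 311.

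Most genes of the Pi starvation lists that rose in B light rose in R light too. All 13 genes of the study's list that rose in B light rose in R light, and so did 6 of the 7 signalling genes, the 6 transporters, the 4 phosphatase genes and the 9 lipid genes. Each of these had the smaller difference in B light, as did 154 of the 213 genes that rose in both. PHT1;5, PHT1;9, PHT3;2, PAP23 and GDPD3 passed the filter on dim probes only through Pi-deficient R light roots. Their rise in R light and its larger size were thus favoured by the filter. The 3 metabolic genes also rose in both lights, 2 of them less in B light. PPCK1 went the other way, with 1.88 in B and 1.53 in R light. SPX1 differed by 3.53 in B and 5.16 in R light, with R light levels of 4.14 and 4.11 against -1.06 and -1.01, and its difference between lights of -1.63 did not pass (limma, adjusted p = 0.0695). The difference was -1.43 for AT4 (limma, adjusted p = 0.133) and -1.49 for SQD2 (adjusted p = 0.107). No gene of the Pi signalling, transporter, phosphatase or lipid lists was called by the test of the difference in limma, and of the study's 61 tested genes 4CL3 was (-1.57, adjusted p = 0.0404), a call that each of the 8 left-out arrays removed.

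That test, of the B minus R difference, called 217 genes (1.17%), 83 with a higher (0.446%) and 134 with a lower (0.721%) value in B light. At an unadjusted p under 0.05 with the fold limit it gave 1390, and at the adjusted p 456 with the slide as a blocking factor. The count was 0 without the filter on dim probes. It was 2 without R light Pi-sufficient replicate 2, 16, 25 and 30 without the other R light arrays, and 121 and 135 without Pi-deficient replicate 1 and Pi-sufficient replicate 2 in B light. CYP93D1 alone among the named genes was called without any of the 8 arrays. It was at 0.05 and -0.51 with Pi deficiency and at 0.07 and -0.01 with sufficient Pi in R light, a difference of -0.26. Since both Pi-deficient B light arrays were below detection, its fitted B minus R value of -5.03 (limma, adjusted p = 0.00308) was -3.14 at the floor. The CYP93D1 call was lost after normexp correction and without the filter on dim probes.

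LCR67 was below detection on all 4 R light arrays, as on the Pi-sufficient B light arrays. Its fitted B minus R value was 6.36 (limma, adjusted p = 0.0111), and 4.24 at the floor. JRG21 (AT3G55970), a jasmonate-regulated gene, was likewise undetected in R light. In B light it was at -1.04 and 0.01 against -5.5 and -5.8, at least 8.7-fold higher, with a B minus R value of 5.59 (limma, adjusted p = 0.0135), or 3.09 at the floor. GSTU11 (AT1G69930) was undetected in R light and at least 11.2-fold higher in B light. scpl14 (AT3G12230), a serine carboxypeptidase-like gene, and AT1G15610 were at least 7.72- and 8.12-fold higher in B light, where Pi-sufficient roots lacked a detected signal, but were detected on all 4 R light arrays.

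The opposite pattern, a rise called in R light and not in B light, was seen for AT1G26390, AT3G55790 and AT2G23270. AT1G26390 was at 0.32 and -0.04 against -6.11 and -6.14 in R light and not well above background on any B light array, so its fitted B minus R value of -7.02 (limma, adjusted p = 0.00599) rests on 2 detected arrays and was -4.28 at the floor. UMAMIT17 and AT1G52820 were detected on all 4 R light arrays and differed there by -1.97 and -0.05, neither called.

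**Figure D5:**
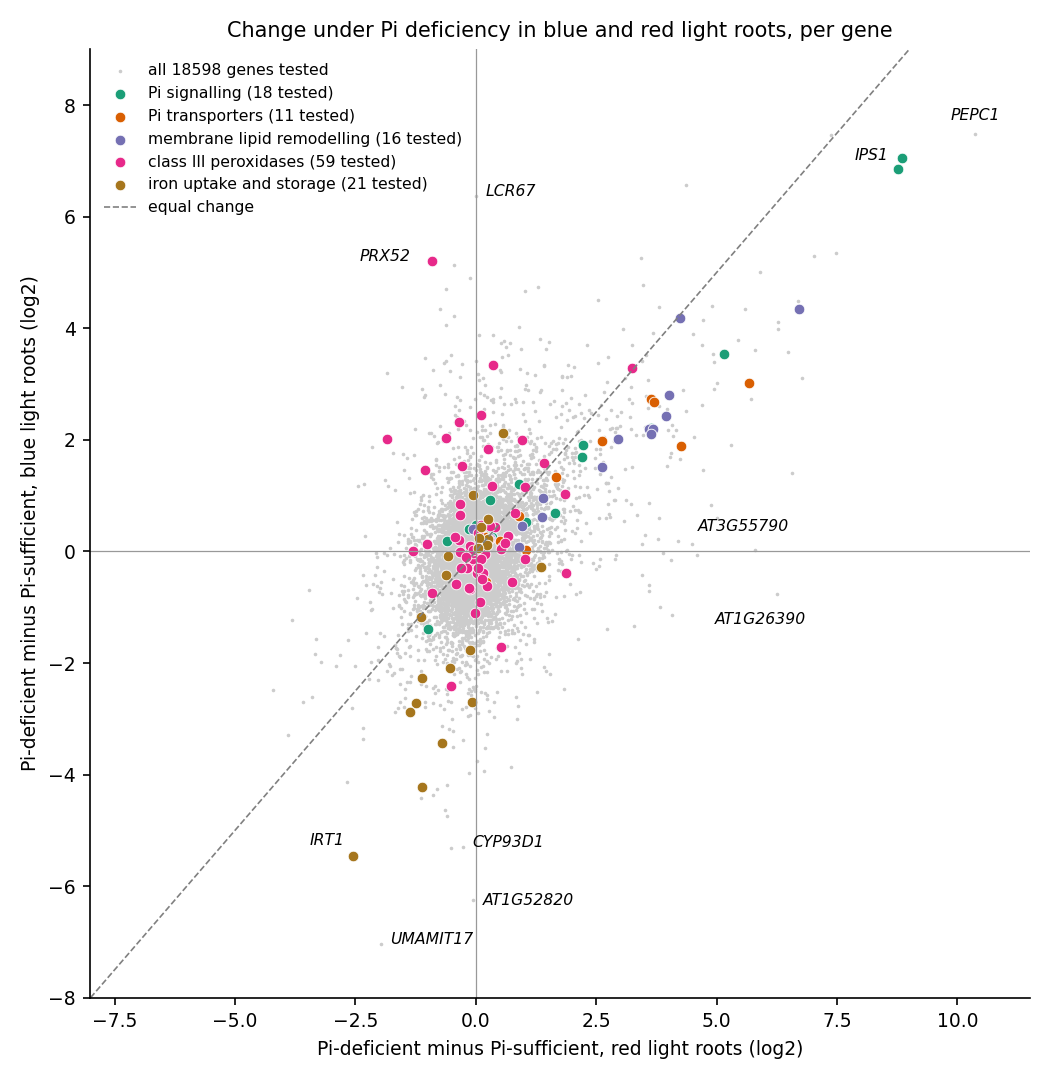
Difference between Pi-deficient and Pi-sufficient roots of each of 18598 genes in R light (x axis, log2) and B light (y axis, log2), with 5 lists in colour and the dashed line at equal change. Pi signalling, transporter and lipid genes lie along the line. Transporter and lipid genes are mostly under it, while 8 of 18 Pi signalling genes are above it. Some iron genes lie far down the y axis and some PRX genes far up it, with list medians in B light of -0.41 and 0.10. LCR67 and CYP93D1 lie near 0 in R light.

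Among the 59 PRX genes 3 rose and 0 fell in R light (2.19% and 0.645% of all genes), of which AT5G64110 had also risen in B light. The test of the B minus R difference called 3 with a higher value in B light and 1 with a lower one. Prx37 was at -0.45 and -0.60 against -0.21 and -0.13 in R light, and the lights differed by 2.68 ± 0.41 (limma, adjusted p = 0.0291). AT4G36430 differed by 2.65 (adjusted p = 0.0401), PA2 by 2.51 (adjusted p = 0.0333) and AT2G39040 by -1.89 (adjusted p = 0.0422) in limma. The call of each was lost in at least 4 of the 8 fits without 1 array. PRX52 had the widest gap, 6.12, or 4.91 at the floor, which did not pass (limma, adjusted p = 0.184) except with the slide as a block (adjusted p = 0.0322).

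Among the 21 iron genes 2 fell and 1 rose in R light (0.645% and 2.19% of all genes). IRT1 was at -4.24 and -0.78 with Pi deficiency and at -0.55 and 0.65 with sufficient Pi there, a difference of -2.56 that did not pass (limma, adjusted p = 0.284). BHLH101 was flat in R light, at -2.67 and -2.90 against -2.88 and -2.52, and the lights differed by -2.61 (limma, adjusted p = 0.0426), or -1.29 at the floor. F6'H1 (AT3G13610), which opens the route to iron-binding coumarins, was at 2.06 and 2.04 against 0.86 and 0.54 in R light and rose there by 1.35, but differed by -0.27 in B light. Its B minus R difference was -1.62 (limma, adjusted p = 0.0379). The BHLH101 and F6'H1 differences were not called after normexp, in the authors' table or without the filter on dim probes. BHLH101 was not called with quantile scaling either. With 1 array left out the difference ran from -3.13 to -2.09 for BHLH101 and from -1.79 to -1.46 for F6'H1. IRT1, FRO2 and FER1 did not pass the test of the B minus R difference, with adjusted p of 0.415, 0.14 and 0.164 in limma. For the other iron genes that fell in B light, B and R light differences with undetected signals at the floor follow, with no test. They were -1.18 and -1.13 for FRU, -0.95 and -1.11 for NAS4 and -1.09 and -1.24 for AT1G47400. FRO2 had -2.89 and -1.11, AT1G47395 -2.63 and -1.36, and MYB10 -1.07 and -0.29.

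Roots of WT plants in white light, from other sets with 3 arrays a group, gave values to set beside these. These plants were 4 weeks old per the labels, against 3 weeks here. Light, age and array set cannot be told apart, and the difference was not tested. Calls made up 7.22% of genes (4.06% up and 3.17% down) in the set run with the hy5 mutant and 5.75% (3.11% up and 2.63% down) in the set run with BBX32-SRDX plants. Of the 580 genes higher in B light roots 236 (40.7%) were called higher in both white-light sets, and of the 552 lower genes 143 (25.9%) were called lower in both. Among all genes, 21972 tested in the hy5 set and 22468 in the BBX32-SRDX set, 483 were called higher and 307 lower in both sets. LCR67 and PRX52 were called higher and CYP93D1 and IRT1 lower in both sets. Of 24 iron genes tested in each set, 10 fell and 2 rose in the hy5 set. In the BBX32-SRDX set 12 fell and 1 rose. FER1 differed by 1.2 and 1.78 in the hy5 and BBX32-SRDX sets. CHI differed by -0.50 and -0.44 and was called in neither set.

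Shoots of WT plants under B light were set against the roots for the 22 genes named whatever their values. The labels do not say whether shoots and roots came from the same plants. Across 19702 genes the test of root minus shoot called 1994 (10.1%), 760 higher (3.86%) and 1234 lower (6.26%) in roots. In the shoots alone calls made up 20.8% of genes, 10.6% up and 10.2% down. RNS1 differed by 8.62 in shoots and 1.56 in roots, a gap of -7.07 (limma, adjusted p = 0.000749), and PHO1 by 3.44 in shoots and 0.40 in roots, a gap of -3.04 (limma, adjusted p = 0.00212). AT4, PHT1;1 and IRT1 had gaps of -2.63, -1.34 and -4.38, and ALMT1, which fell by 2.17 in shoots, a gap of 2.27. Of the 16 fits without 1 array AT4 was called in 13, PHT1;1 in 8, IRT1 in 4 and ALMT1 in 3. RNS1 and PHO1 kept the call without any 1 of the 16 arrays. IPS1, SPX1, SPX3, MGD3, SQD1, SQD2, NPC4, PHT1;4, PAP17 and FER1 had gaps from -2.16 to 0.91 that did not pass.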

How the data were processed

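Each array held 1 RNA sample on an Agilent 1-colour design. The scanner files deposited by the authors give the processed signal, a fluorescence intensity that Feature Extraction had background-subtracted without scaling between arrays. The processing notes name version 9.1.3.1, and the file headers of these arrays name another. The authors also deposited a table of processed values on the natural log scale, a scale found from the signals and used as an alternative. Of 43603 probes 36163 (82.9%) were matched to 26716 genes by identifiers in the files and RefSeq, and 7320 genes had several probes.

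The processed signal was taken as log2 minus each array's 75th percentile. A gene took its brightest probe, and 18598 genes were tested, those with a signal well above background on every array of 1 or more groups. Group means over the 8 root arrays were fitted with limma 3.58.1 in R 4.3.3, with eBayes and Benjamini-Hochberg adjustment over all genes tested. The root and shoot comparison used the 16 arrays of the light experiment, and each white-light set was fitted alone. All p are two-sided. An exact permutation test of 2 against 2 arrays cannot go below 0.333. The fits were tested on simulated data. Alternatives were quantile scaling, the median of detected probes, normexp with an offset of 50, the authors' table, no filter and the mean of probes. Others were the slide as a block, fewer arrays, other thresholds and each array left out. In roots the slide matched the replicate number, and shoots were on other slides.

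Named genes are the 10 highest and 10 lowest calls whose arrays do not overlap, up to 4 calls per list, the 5 highest and 5 lowest calls of the B minus R difference, and 22 genes named whatever their values, 75 in all. Another 32 were named after their values were seen. The members and the 19 lists were chosen with earlier results of these data known.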

Additional observations from a re-analysis of the deposited data

Results flagged for a closer look

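The Pi effect differed between B and R light roots for 217 genes by the test of the difference, and between roots and shoots under B light for 1994. From these, the named genes with a difference between lights are given here with the B minus R value of the fitted log2 difference. Lower in B light were AT1G26390 (-7.02), AT1G52820 (-6.19), AT3G55790 (-5.78), AT2G23270 (-5.18), UMAMIT17 (-5.07), CYP93D1 (-5.03), CYP712A1 (-4.80), CYP712A2 (-4.15), AT1G52790 (-3.98), AT1G15540 (-3.49), AT2G38600 (-3.45), UMAMIT14 (-3.34), BHLH101 (-2.61), CYP81F2 (-2.59), UMAMIT20 (-2.53), AT2G39040 (-1.89), F6'H1 (-1.62) and 4CL3 (-1.57). Higher in B light were LCR67 (6.36), JRG21 (5.59), scpl14 (5.32), AT1G15610 (5.10), GSTU11 (5.01), WRKY28 (3.04), Prx37 (2.68), AT4G36430 (2.65), PA2 (2.51) and AT3G47480 (2.21).

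At least 1 of the 8 arrays was not well above background for 19 of these 28 genes, so their fitted values are not measured differences. With undetected signals raised to the array's floor all 19 kept their direction and a fold over 2, with -4.28 for AT1G26390, -5.13 for AT1G52820, -3.46 for UMAMIT17 and 4.24 for LCR67, values with no test.

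Of these 28 genes 28 were also called with the slide as a block, 16 in the authors' table, 10 after normexp correction and 0 without the filter on dim probes. With each of the 8 arrays left out in turn 1 of the 28, CYP93D1, was called every time, and the highest adjusted p among the others was 0.199 in limma.

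The 6 named genes whose Pi effect differed between organs had root minus shoot values of -7.07 for RNS1, -4.38 for IRT1, -3.04 for PHO1, -2.63 for AT4, -1.34 for PHT1;1 and 2.27 for ALMT1. RNS1 and AT4 were called under all 8 other settings. PHO1 lost its call after normexp correction and IRT1 without the filter. ALMT1 was not called with the slide as a block, after normexp correction, in the authors' table or without the filter. PHT1;1 was called under 3 of the 8.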

How the results depend on the processing

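With 2 arrays a group and 57.0 to 64.8% of spots well above background on the B light root arrays, precision is limited most for dim genes. For B light roots the 1132 calls became 291 after normexp correction, 322 in the authors' table, 453 without the filter and 712 with the 4 B light arrays alone, and ran from 778 to 1071 with 1 array left out. Their share higher was 51.2%, and 64.6% after normexp. The decreases alone fell from 552 to 361 without R light Pi-sufficient replicate 2. Other settings stayed within 1.5 times of the main count. For R light roots the 527 calls became 310 (normexp), 200 (authors' table), 214 (no filter) and 942 at an unadjusted p with the fold limit, and 208 to 561 with 1 array left out. For the B minus R difference the 217 calls became 45 (normexp), 74 (authors' table), 0 (no filter), 1390 at an unadjusted p with the fold limit and 456 with the replicate block, and 2 to 304 with 1 array left out. For root minus shoot the 1994 calls became 751 (normexp), 790 (authors' table, 7.22% of them higher) and 3421 at an unadjusted p with the fold limit, and 1139 to 2119 with 1 array left out (1159 without shoot Pi-deficient replicate 1 and 1139 without root Pi-sufficient replicate 2 under B light). The cause of these shifts was not tested. The median difference of all genes was -0.08, -0.12 after normexp and -0.27 in the authors' table.

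Of 107 named genes 93 were called, and 32 of these were called under all alternatives run and 63 without any 1 array. In 7 genes the fitted difference changed sign. After normexp it was -0.13 for PHT1;9, -0.092 for PAP23, -0.17 for PHT3;2, -0.0597 for GDPD3, -0.13 for AT2G23270 and -0.37 for AT3G55790, which was also -0.32 in the authors' table, -0.48 without Pi-deficient replicate 1 (0.52 without Pi-deficient replicate 2) and -0.04 without Pi-sufficient replicate 2. ALMT1 was at -0.14 in the authors' table and -0.057 with the mean of probes.

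Replicate numbers are not shown to pair the plants. Same-numbered deviations correlated at 0.03 to 0.42, over 0.1 in 4 of 6 pairs of groups. With the slide as a block 1387 genes were called in B light roots and 724 in R light roots. The counts were 456 for the B minus R difference and 2404 for root minus shoot. RNS1 was gained among the named genes in B light roots.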

Other observations

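A few families outside the lists were tallied after their values were seen. Of 52 WRKY transcription factor genes tested 12 were higher in B light roots and 0 lower (3.12% and 2.97% of all genes), and 4 were higher in R light (2.19%). The B minus R test called 1 of them higher and 2 lower in B light. WRKY38 (AT5G22570) was at 0.27 and 1.15 with Pi deficiency and at -2.86 and -1.94 with sufficient Pi, a rise of 3.11 (limma, adjusted p = 0.00355), and in R light its difference was 0.16. WRKY28 (AT4G18170) was at least 5.37-fold higher in B light and below detection in R light. Of 25 tau-class glutathione S-transferase genes 6 rose and 0 fell. Of 31 UMAMIT transporter genes 0 rose and 6 fell, both families against the same shares of all genes. UMAMIT20 (AT4G08290) went from 1.94 and 2.38 to -0.54 and -0.78, and UMAMIT36 (AT1G70260) fell by 3.29 in B and 3.89 in R light, with -2.47 and -3.12 when undetected signals were raised to the floor.

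Of 137 cytochrome P450 genes tested 8 rose and 10 fell (3.12% and 2.97% of all genes). CYP735A2 (AT1G67110) and CYP735A1 (AT5G38450), which make the trans-zeatin form of cytokinin, were at least 6.40- and 3.01-fold lower in B light roots, with both Pi-deficient arrays below detection, and CYP735A2 also fell in R light, by 2.68. CYP71A12 (AT2G30750), of indolic defence metabolism, was at least 10.01-fold higher, and CYP79F1 (AT1G16410), of aliphatic glucosinolate synthesis, at least 2.86-fold higher, a call lost in 4 of the 8 fits without 1 array. CYP81F2 (AT5G57220), of indole glucosinolate synthesis, rose by 1.66 in B light and by 4.25 in R light, and lost its B light call without Pi-deficient replicate 2 or Pi-sufficient replicate 1.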
